A study of Bos grunniens with 12 samples.

Results

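Solute carrier (SLC) genes encode membrane proteins that move amino acids, sugars, ions, vitamins and metabolites across the plasma membrane and the membranes of organelles. The rows described here were selected on 2 criteria, a symbol beginning with SLC and a digit, and a measured mean of at least 1 FPKM (the number of fragments corrected for transcript length and for library size) over the 6 input libraries. This gave 215 of the 459 SLC rows, out of 20953 rows in the gene table, and they carried 178 different symbols. Of the SLC rows left out, 244 had a mean under 1 FPKM and 35 of these were listed at 0 in every library. The rows just outside the limit were SLC20A2 (0.943, on an identifier other than its member row), SLC35B4 (0.958, likewise) and SLC19A3 (0.960), and those just inside were SLC35A2 (1.00), SLC22A17 (1.05) and SLC2A2 (1.06). Of the 215 rows, 6, under the symbols SLC9A3R1, SLC9A3R2, SLC2A4RG and SLC7A6OS, met the rule by name although these genes are scaffold, regulatory or other proteins and not carriers. They were set apart after their values were seen.

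SLC families are numbered by sequence and, broadly, by substrate. Cells take up amino acids through SLC1, SLC6, SLC7, SLC36 and SLC38 proteins and sugars through SLC2 and SLC5 proteins. Most, though not all, SLC25 proteins lie in the inner mitochondrial membrane. Many, though not all, SLC35 proteins feed sugars on nucleotides into the Golgi apparatus, and SLC30 and SLC39 proteins move zinc out of and into the cytosol. In the testis, Sertoli cells pass nutrients to the germ cells behind the blood-testis barrier, and sperm use carriers of bicarbonate, protons and lactate in motility and capacitation.

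The study compared testes of yaks (Bos grunniens) aged 1.5 years, called Y in the paper, with testes of yaks aged 5 years, called M. Each age was represented by 3 animals, and each animal gave an input RNA library and a library of fragments pulled down with an antibody against m6A, a methyl mark on adenosine. The testes of the younger yaks were obtained by castration and those of the older yaks after the animals were put to death, so age and the way of collection cannot be told apart. Expression was measured in the 6 input libraries. The m6A libraries entered only through the deposited list of peaks that differed between the ages.

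The direction of every comparison rested on the age in the sample titles. The developmental stage entered for the samples named the opposite stage, with the 5-year testes as before maturity, and the letters M and Y were exchanged between the deposited protocol and the paper. Markers of spermatids, cells that appear in the testis only after meiosis, were high in the libraries labelled 1.5 years. TNP1, a protein that replaces histones in elongating spermatids, stood at 883, 852 and 879 FPKM in 1.5-year libraries 1, 2 and 3 and at 201, 641 and 550 in 5-year libraries 1, 2 and 3. The libraries are therefore called by their labelled age throughout, and a reading by the stage field would turn every direction around.

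Members were close to evenly split between the ages. The median log2 fold change (5-year over 1.5-year libraries, from limma on log2(FPKM + 0.1)) was 0.0089 over the 215 members and 0.0426 over all 12437 rows tested, and the lower and upper quartiles of the members were -0.31 and 0.39. Past the thresholds of an unadjusted p under 0.05 and a change of more than 2-fold were 19 members, or 8.84%, against 9.26% of all rows tested. Among these, 9 were higher in the 5-year libraries (4.19% of members, background 4.01%) and 10 were lower (4.65%, background 5.25%). These shares stood near the background. Among the 10928 tested rows with a mean of at least 1 FPKM, the limit the members also met, 8.67% were past the thresholds, 3.31% higher and 5.36% lower. None of the 215 had an adjusted p under 0.05 in limma with Benjamini-Hochberg adjustment, whereas 49 (22.8%, against 25.1% of all rows) had an unadjusted p under 0.05, and of all rows tested 4 had an adjusted p under 0.05. The 3 libraries of each age did not overlap in 67 members, or 31.2%, against 33.7% of all rows, and 40 of these were higher (18.6% of members, 19.8% of all rows) and 27 lower (12.6%, against 13.9%) in the 5-year libraries. With FPKM scaled to the same sum in every library, the split became 12 higher and 9 lower, and that of all rows became 5.61% higher and 3.91% lower.

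**Figure D1:**
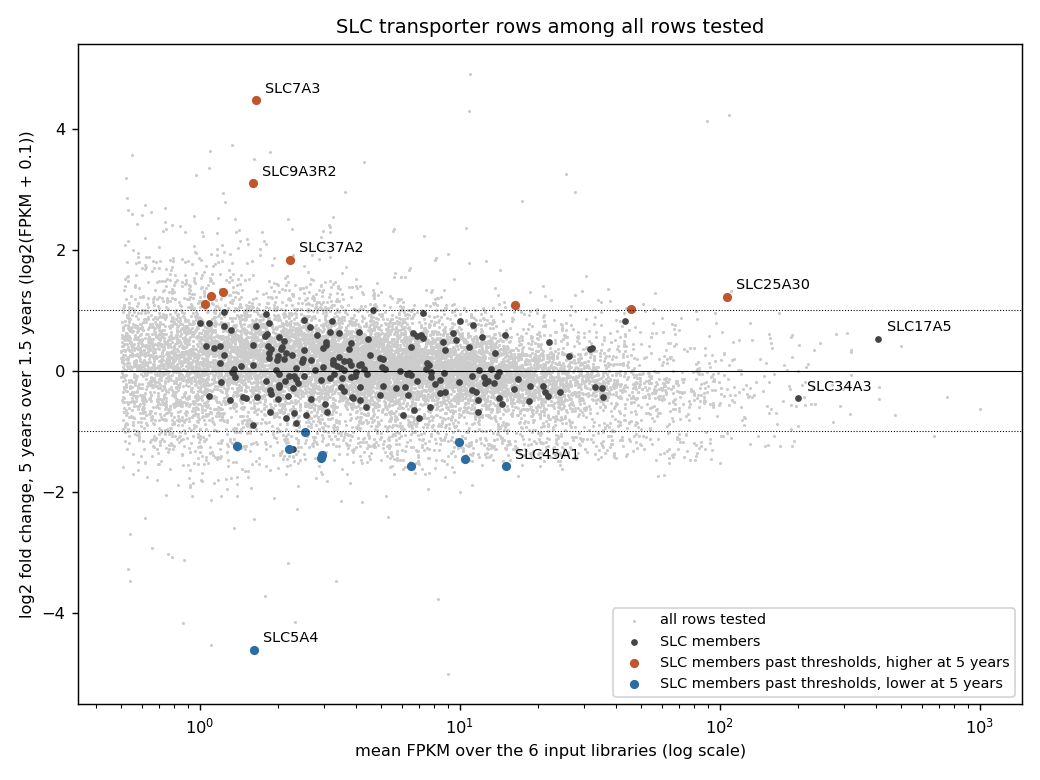
Each point is a row of the gene table, placed by its mean FPKM over the 6 input libraries (log axis) and its log2 fold change between the ages. The 215 SLC members (dark) spread as widely as the 12437 rows tested (grey), with 9 past the thresholds above 0 (orange) and 10 below it (blue). Dotted lines mark a 2-fold change.

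Most SLC messages were scarce and a few were very abundant. The mean was under 5 FPKM in 131 members and at least 10 FPKM in 45. SLC17A5, which exports sialic acid from lysosomes, had the highest mean, with 314, 331 and 344 FPKM in the 1.5-year libraries and 611, 402 and 441 in the 5-year libraries. Every 5-year library of this SLC17A5 row (ENSBGRG00000009070) lay above every 1.5-year library. Its log2 fold change was 0.53 ± 0.23 (SE), under the 2-fold limit. A second, scarcer SLC17A5 row (ENSBGRG00000008882) overlapped between the ages, at 2.99 to 3.61 FPKM at 1.5 years and 2.63 to 3.70 at 5 years (log2 fold change -0.047). SLC34A3, a sodium-phosphate cotransporter best known from the kidney, was next with 252, 214 and 223 FPKM at 1.5 years and 130, 196 and 187 at 5 years. For SLC34A3 the order was the opposite, with all 3 5-year libraries below the 1.5-year libraries and a log2 fold change of -0.44 ± 0.22 (SE).

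SLC25A30, a mitochondrial carrier on identifier ENSBGRG00000023216, held the third place and is described with the mitochondrial carriers below. The next in level were SLC25A6, SLC7A14, SLC25A39, SLC6A20, SLC23A2, SLC52A3 and SLC7A5, with means between 31.6 and 45.8 FPKM. SLC25A39, which imports glutathione into mitochondria, stood at 45.3, 34.9 and 42.3 FPKM at 1.5 years and at 23.9, 34.3 and 33.4 at 5 years, lower without overlap but by less than 2-fold. SLC6A20, a carrier of proline, overlapped between the ages (36.9 to 40.7 and 25.4 to 39 FPKM). So did the vitamin C transporter SLC23A2 (ENSBGRG00000006155, 32.4 to 39.2 and 24.8 to 36.8) and the riboflavin transporter SLC52A3 (25.2 to 32.3 and 27 to 42.1). A second, scarcer SLC23A2 row (ENSBGRG00000006116) also overlapped, at 3.57 to 4.47 and 3.27 to 5.37 FPKM.

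The 215 members together held 1.44%, 1.50% and 1.45% of the summed FPKM in the 1.5-year libraries and 2.04%, 1.55% and 1.75% in the 5-year libraries. Without the most abundant row of SLC17A5 and that of SLC25A30, a pair chosen after the values were seen, the ages overlapped. The shares were then 1.17%, 1.21% and 1.15% at 1.5 years and 1.35%, 1.19% and 1.26% at 5 years. The 3 most abundant members of each library made up 30.4% to 31.5% of the members' sum at 1.5 years and 39.4%, 33.3% and 36.1% at 5 years.

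SLC7A3, a plasma membrane transporter of arginine, lysine and ornithine, showed the largest ratio of the members that were higher in the 5-year libraries. Its FPKM was 0.0440, 0 and 0.0393 in the 1.5-year libraries and 5.17, 1.00 and 3.63 in the 5-year libraries. It was thus near the floor of the table in every 1.5-year library and at 1 FPKM or more in every 5-year library, with a log2 fold change of 4.47 on the log2(FPKM + 0.1) scale, which understates a change from values near 0. SLC7A3 was picked with this pattern known, so the values are a description.

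The amino acid carriers formed a group of 24 rows, each under its own symbol, of which 2 were past the thresholds and higher in the 5-year libraries and 3 were past them and lower. Of all rows tested, 4.01% were past the thresholds and higher and 5.25% were past them and lower. Within it the SLC7 family and the remaining families leaned different ways. Of 8 SLC7 rows, 6 had a fold change above 0 and 5 were higher without overlap. Both counts include SLC7A3, which was picked with its pattern known and reached the level limit only through the 5-year libraries. Of the 16 rows of the other amino acid families (SLC1, SLC6, SLC36, SLC38 and SLC43), 12 had a fold change below 0, 6 were lower without overlap and 2 were higher without overlap. For the counts without overlap the background is 19.8% higher and 13.9% lower over all rows tested. For the counts by sign it is 6651 of the 12437 rows tested with a fold change above 0. The split was noticed in these values and the difference between the families was not tested.

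The 4 cationic carriers of the SLC7 family (SLC7A1, SLC7A2, SLC7A3 and SLC7A14) each had an unadjusted p under 0.05 and no overlap between the ages. They were set apart after their values were seen, and SLC7A3 was picked for its pattern, so the count is a description. Of all rows tested, 14.2% were higher with an unadjusted p under 0.05 in limma, and 19.8% were higher without overlap. Of the other 4 SLC7 rows (SLC7A5, SLC7A6, SLC7A8 and SLC7A9), 2 had a fold change above 0 and 2 below, and 1, SLC7A5, was without overlap. SLC7A14, a lysosomal member, stood at 35.1, 31.1 and 25.8 FPKM at 1.5 years and at 71.4, 35.6 and 61.5 at 5 years (log2 fold change 0.82 ± 0.28 SE). SLC7A2, an arginine and lysine transporter, had 6.88 to 7.72 FPKM at 1.5 years and 9.23 to 15 at 5 years, and SLC7A1, the widely expressed transporter of the same amino acids, had 4.44 to 7.10 and 7.33 to 9.17. Apart from SLC7A3, all of these changes were under 2-fold. With 1 library left out, the unadjusted p in limma reached at most 0.0822 for SLC7A1 (not under 0.05 in 3 of 6 fits, without 1.5-year library 1 or 3 or 5-year library 3), 0.0747 for SLC7A14 (2 of 6, without 1.5-year or 5-year library 3) and 0.0538 for SLC7A2 (1 of 6, without 1.5-year library 3). SLC7A5, the large neutral amino acid transporter that pairs with a heavy chain, had 26.8, 31 and 25.3 FPKM at 1.5 years and 40.5, 31.6 and 34.6 at 5 years, again without overlap (0.36 ± 0.16 SE).

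Among the sodium-coupled neutral amino acid transporters, SLC38A2 was on one side and SLC38A4 and SLC38A8 on the other. SLC38A2, a glutamine and alanine transporter that many cell types induce when amino acids run short, had 10.1, 10.4 and 10.1 FPKM at 1.5 years and 31.8, 16.7 and 19.4 at 5 years. The 1.5-year libraries were nearly equal and all 3 5-year libraries lay above them, with a log2 fold change of 1.09 ± 0.24 (SE, unadjusted p = 0.00266, adjusted p = 0.154 in limma with Benjamini-Hochberg adjustment). SLC38A4 had 5.69, 2.87 and 4.09 FPKM at 1.5 years and 0.676, 2.70 and 1.76 at 5 years. For this gene the highest 5-year library lay just under the lowest 1.5-year library, and the log2 fold change was -1.38 ± 0.48 (SE). In the RefSeq annotation of another yak assembly (Bosgru_T2T1.0) SLC38A4 and SLC38A2 are neighbours. SLC38A8, a glutamine transporter known from the eye, had 3.77, 5.50 and 3.38 FPKM at 1.5 years and 0.644, 2.12 and 2.15 at 5 years, lower in all 3 5-year libraries (-1.45 ± 0.45 SE).

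SLC36A3, a proton-coupled amino acid carrier whose expression is known from the testis, had 18.3, 14.8 and 12.3 FPKM at 1.5 years and 2.95, 7.46 and 7.06 at 5 years. It was the most abundant amino acid carrier past the thresholds on the lower side, with no overlap and a log2 fold change of -1.45 ± 0.36 (SE, adjusted p = 0.154 in limma with Benjamini-Hochberg adjustment). SLC1A4, a transporter of serine and alanine, stood at 7.02 to 8.04 FPKM at 1.5 years and 3.44 to 6.09 at 5 years, and SLC6A6, the taurine transporter, at 2.47 to 3.60 and 1.33 to 2.35, both without overlap and under 2-fold.

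**Figure D2:**
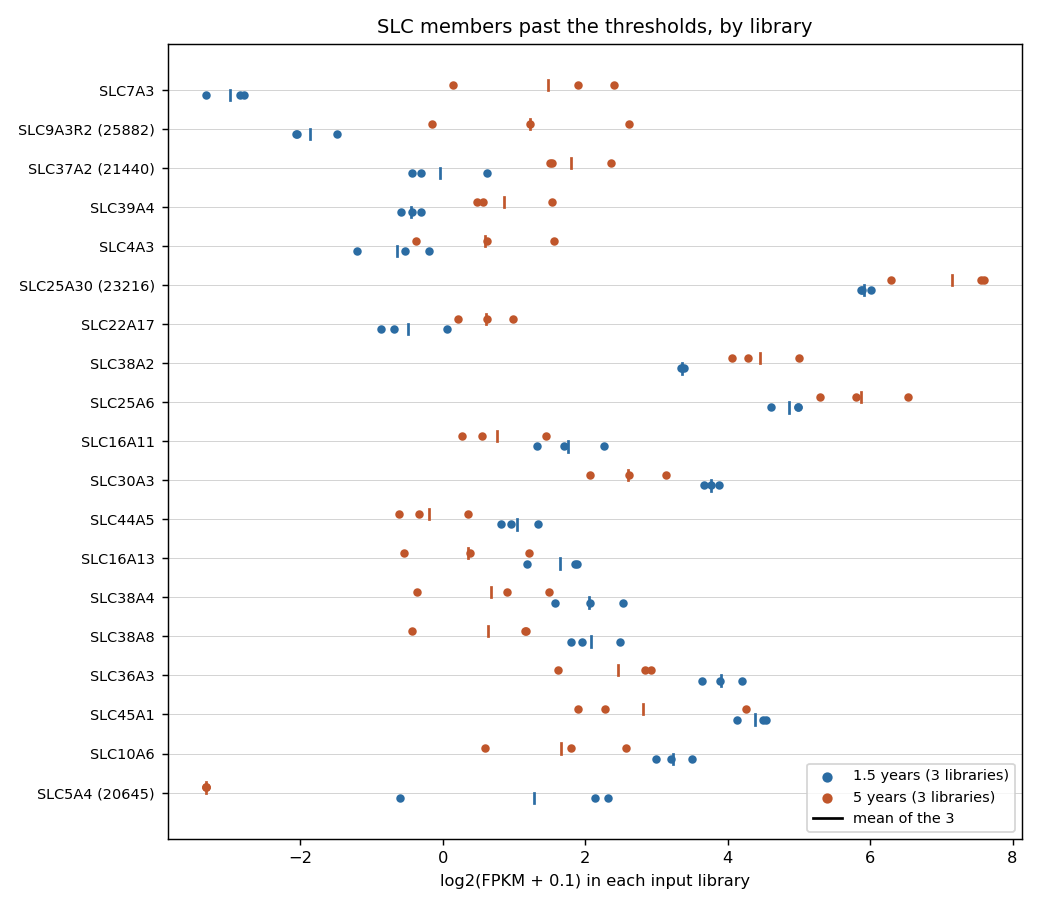
The plot shows log2(FPKM + 0.1) in each of the 6 input libraries for the 19 SLC members past the thresholds, ordered by log2 fold change, with the 1.5-year libraries in blue, the 5-year libraries in orange and short bars at the means of 3. The ages overlap in SLC4A3, SLC45A1, SLC16A13 and SLC16A11 and are apart in the other 15. Digits in brackets end the identifier of symbols that stand on several rows.

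Mitochondrial carriers (SLC25) were the largest group, with 41 rows under 32 symbols, 2 of them past the thresholds and higher in the 5-year libraries and 0 lower. The shares over all rows tested were 4.01% higher and 5.25% lower, and no difference from that background is claimed. SLC25A30, an inner membrane carrier linked to transport of inorganic anions, had 58.8, 64.2 and 58.5 FPKM at 1.5 years and 193, 78.4 and 188 at 5 years. 5-year libraries 1 and 3 were far above the 1.5-year libraries while 5-year library 2 was only slightly above them, and the log2 fold change was 1.23 ± 0.35 (SE, adjusted p = 0.154 in limma with Benjamini-Hochberg adjustment). A second, scarcer SLC25A30 row (ENSBGRG00000023058) was also higher without overlap, with 0.968 to 1.37 FPKM at 1.5 years and 1.55 to 2.86 at 5 years.

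SLC25A6, one of the carriers that exchange ADP and ATP across the inner membrane, had 24.2, 31.6 and 31.7 FPKM at 1.5 years and 92.4, 39.2 and 55.6 at 5 years (1.01 ± 0.31 SE). All 3 5-year libraries lay above all 1.5-year libraries. The other nucleotide exchangers overlapped between the ages: SLC25A4, the heart and muscle form, at 11.5 to 12.4 and 8.83 to 22.7 FPKM, SLC25A5 at 1.05 to 1.84 and 0.857 to 1.80, and SLC25A31, the form known from germ cells, at 9.53 to 12.9 and 8.05 to 10.3. The summed FPKM of the 41 rows was 361.7, 358.6 and 344.5 at 1.5 years and 569.6, 368.7 and 519.0 at 5 years. SLC25A30 and SLC25A6 were the 2 most abundant rows in that sum.

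Zinc transporters (20 rows) had 1 row past the thresholds in each direction and 7 rows with an unadjusted p under 0.05. Of 12 SLC39 rows, which import zinc into the cytosol, 4 had an unadjusted p under 0.05 and a higher level in the 5-year libraries and 1, SLC39A13, had one and a lower level. Of 8 SLC30 rows, which export zinc from the cytosol, 0 were higher at that level and 2 were lower. Over all rows tested, 25.1% had an unadjusted p under 0.05, 14.2% higher and 10.9% lower. Past the thresholds were 4.01% higher and 5.25% lower, and 6651 of the 12437 rows tested had a fold change above 0. Fold changes were above 0 in 5 of the 8 SLC30 rows (median log2 fold change 0.0753) and in 8 of the 12 SLC39 rows (0.441). The difference between the 2 families was not tested. SLC39A4, the zinc importer of the gut, had 0.711, 0.566 and 0.637 FPKM at 1.5 years and 2.79, 1.38 and 1.29 at 5 years, apart in all libraries (1.30 ± 0.33 SE). SLC39A14, an importer of zinc and iron, was at 2.20 to 3.66 and 5.07 to 7.05 FPKM on identifier ENSBGRG00000010491, just under the 2-fold limit with a log2 fold change of 1.00. SLC30A3, which loads zinc into vesicles, had 14.6, 12.7 and 13.5 FPKM at 1.5 years and 4.08, 8.64 and 6.04 at 5 years, lower in all 3 5-year libraries (-1.17 ± 0.26 SE, unadjusted p = 0.00286 and adjusted p = 0.154 in limma with Benjamini-Hochberg adjustment). SLC30A1, the exporter of the plasma membrane, stood at 16.2 to 19.4 and 11.4 to 12.4 FPKM, lower without overlap by less than 2-fold.

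Sugar carriers (18 rows) had 1 row past the thresholds that was higher in the 5-year libraries and 2 that were lower. The background over all rows tested was 4.01% higher and 5.25% lower, and with so few rows no difference from it is claimed. The glucose and fructose transporters of the SLC2 family gave no row without overlap among 6, against 33.7% of all rows tested. SLC2A8 had 20.2 to 30.1 FPKM at 1.5 years and 12.7 to 23.1 at 5 years, and SLC2A5, a fructose transporter of the gut and sperm, had 21.3 to 23.2 and 13.9 to 23.3. SLC45A1, a proton-coupled sugar carrier, had 22.5, 17.4 and 23.2 FPKM at 1.5 years and 3.62, 19 and 4.77 at 5 years. 5-year libraries 1 and 3 were far below the 1.5-year libraries but 5-year library 2 lay among them, and the log2 fold change of -1.58 ± 0.57 (SE) came with overlap between the ages.

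SLC37A2, a sugar phosphate exchanger of the endoplasmic reticulum, gave opposite signs on 2 identifiers. Row ENSBGRG00000021440 had 1.44, 0.642 and 0.709 FPKM at 1.5 years and 5.04, 2.74 and 2.79 at 5 years, higher in every 5-year library (1.84 ± 0.36 SE). Row ENSBGRG00000021655 was more abundant and lower in the 5-year libraries, at 5.75 to 7.11 and 4.70 to 5.39 FPKM (-0.28 ± 0.15 SE). SLC5A4, a relative of the intestinal sodium-glucose transporter that senses glucose, stood on 4 member rows. Row ENSBGRG00000020645 had 0.559, 4.87 and 4.30 FPKM at 1.5 years and was listed at 0 in all 3 5-year libraries, while the other SLC5A4 rows were above 0 in all 6 libraries. The changes of those other rows ran from -0.11 to 0.68 on the log2 scale.

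Of the 28 symbols that stood on more than 1 member row (65 rows in all), 14 had rows of opposite sign. Such a symbol had a row past the thresholds in 4 cases (SLC5A4, SLC9A3R2, SLC25A30 and SLC37A2) and in none of them did all rows pass. Only uniquely aligned reads were kept per the study's methods, so reads shared by near-identical copies could be missing from such rows. The table does not say which rows are copies. A further limit was set by rows listed at 0: 6 members were at 0 in at least 1 library. SLC25A53 (ENSBGRG00000022588) had 12.9, 0 and 0 FPKM at 1.5 years and 0, 0 and 11 at 5 years, and SLC35F1 had 0, 8.70 and 0 and then 0, 3.28 and 0, so these rows differed between animals of the same age.

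In the remaining groups a few rows were past the thresholds. SLC10A6, a transporter of sulphated steroid hormones known from the testis, had 7.84, 9.12 and 11.3 FPKM at 1.5 years and 1.40, 3.38 and 5.87 at 5 years, lower in every 5-year library (-1.58 ± 0.46 SE). SLC44A5, a member of the choline transporter-like family, had 1.85, 1.66 and 2.43 and then 0.552, 1.18 and 0.692 FPKM, again without overlap (-1.24 ± 0.31 SE). The monocarboxylate carriers SLC16A11 and SLC16A13, which are neighbours in the same RefSeq annotation, were both past the thresholds on the lower side and both overlapped between the ages. SLC16A11 had 2.39 to 4.68 FPKM at 1.5 years and 1.10 to 2.63 at 5 years, and SLC16A13 had 2.18 to 3.57 and 0.586 to 2.20. SLC16A1, the main lactate transporter of many tissues, was level, with 5.31 to 6.41 and 5.16 to 6.51 FPKM.

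On the higher side, SLC22A17, a receptor for lipocalin-bound iron, had 0.449, 0.939 and 0.524 FPKM at 1.5 years and 1.06, 1.43 and 1.87 at 5 years without overlap (1.10 ± 0.34 SE), and SLC4A3, a chloride-bicarbonate exchanger, had 0.591, 0.334 and 0.770 and then 2.84, 0.668 and 1.43, with overlap (1.24 ± 0.52 SE). SLC9A3R2, a scaffold for sodium-proton exchangers and not a carrier, had 0.141, 0.139 and 0.255 FPKM at 1.5 years and 6.01, 0.800 and 2.24 at 5 years on identifier ENSBGRG00000025882. Its 5-year libraries were far apart from each other and all lay above the 1.5-year libraries (3.10 ± 0.66 SE). Of the 18 members with a mean under 1 FPKM at 1 of the ages, 6 were among the 9 higher rows and 2 among the 10 lower rows. These 8 rows entered the members through the age at which they were high. Of the 24 SLC35 rows, grouped under nucleotide sugars by family number alone, 0 were past the thresholds, against 9.26% of all rows tested. Their median log2 fold change was 0.09.

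**Figure D3:**
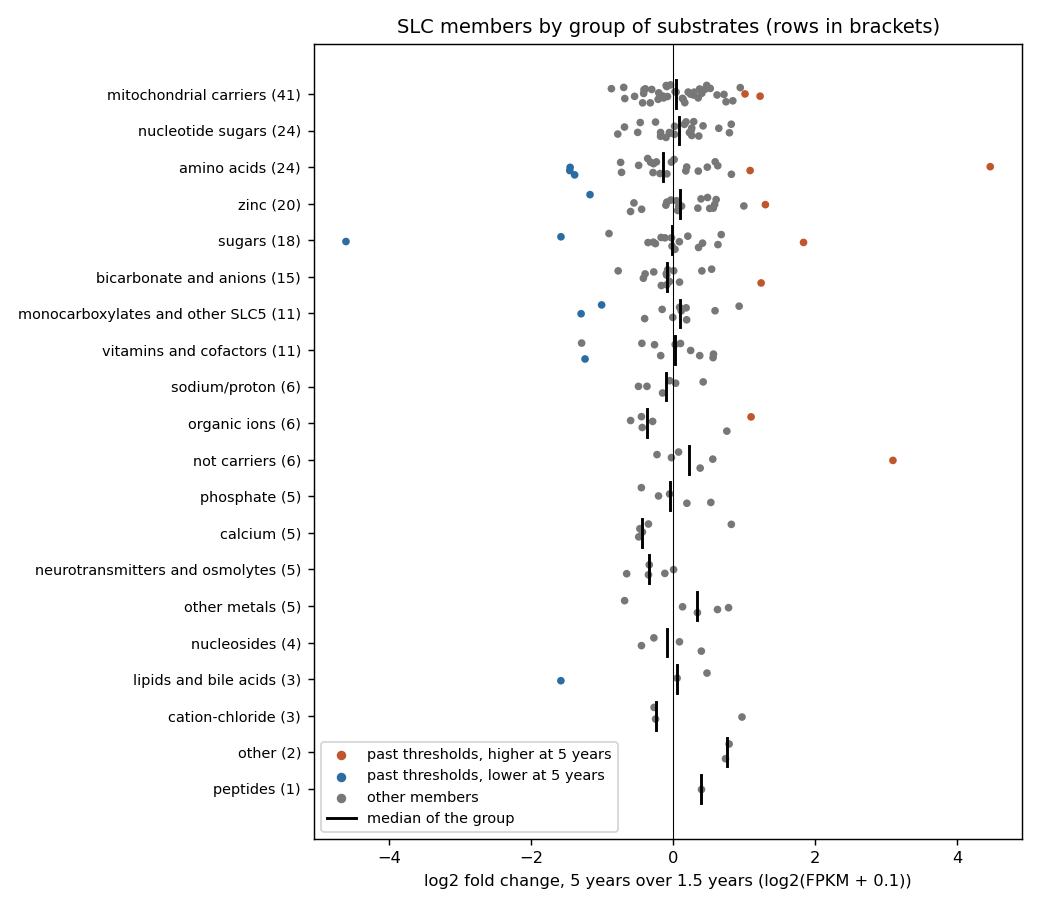
Log2 fold changes of the 215 members (points) are shown by the substrates of their SLC family, with the number of rows in brackets, the median as a bar, and rows past the thresholds in orange (higher) and blue (lower). Medians of the groups with 10 rows or more lie between -0.13 and 0.10, and amino acid carriers hold points far to both sides.

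A list of transporters known from spermatids, sperm or spermatocytes was set beside a list assigned to Sertoli, endothelial, blood or immune cells of organs. The cells that express these genes in the yak testis were not tested. In bulk tissue, fewer cells of a type and less RNA per cell cannot be told apart. The germ cell list held 15 symbols, of which 12 were members on 14 rows. There were 0 rows past the thresholds and higher and 1 lower (SLC36A3), against 4.01% higher and 5.25% lower over all rows tested. The median log2 fold change was -0.22 against 0.0426 for all rows tested. Of the 14 rows, 11 were below 0, while 6651 of the 12437 rows tested were above 0. The difference from all rows was not tested. SLC26A8, an anion transporter needed for sperm motility, had 23.7, 26.4 and 23.5 FPKM at 1.5 years and 12, 24.1 and 21.3 at 5 years. SLC9C1, the sperm sodium-proton exchanger, had 8.36 to 10.5 and 4.75 to 9.63, and SLC9B1 had 11.5 to 15.6 and 6.69 to 13.8. Each of these overlapped between the ages through 5-year library 2, with 5-year library 1 the lowest. SLC4A2, a widely expressed chloride-bicarbonate exchanger on the same list, went the other way, at 5.21 to 6.28 and 7.56 to 10.3 FPKM without overlap.

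The list of somatic transporters held 17 symbols, of which 8 were members and 8 were under 1 FPKM. Only SLC38A2 was past the thresholds, and the median log2 fold change was 0.0074. The list also held SLC2A8, described with the sugar carriers, whose place among somatic transporters of the testis was not tested. SLC2A1, the glucose transporter of barrier tissues, had 1.87 to 1.92 FPKM at 1.5 years and 1.25 to 2.02 at 5 years, SLC12A2 had 6.54 to 6.87 and 4.06 to 6.46, and SLC1A5, a glutamine transporter, had 3.41 to 3.64 and 2.85 to 4.24. SLC4A1 of red cells and SLC11A1 of macrophages were below 0.5 FPKM in every library.

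Transport genes outside the SLC naming rule were counted on the same terms. The 36 rows were SLCO carriers, ABC transporters, the sodium pump, aquaporins, and the genes EMB, NPTN, MPC1, MPC2 and UCP2. The thresholds were passed by 3 higher rows and 1 lower row of the 36, against 4.01% higher and 5.25% lower over all rows tested. With so few rows, no difference from that background is claimed. The higher rows were ABCC1, a pump of conjugated metabolites (4.18 to 5.40 FPKM at 1.5 years and 7.55 to 14.7 at 5 years), ABCG2, a pump at tissue barriers (1.44 to 2.23 and 3.39 to 5.12), and ATP1B1, a subunit of the sodium pump (7.82 to 11 and 12.9 to 25.9). The lower row was ATP1A4, the sodium pump subunit of sperm, with 34, 26.8 and 32.7 FPKM at 1.5 years and 6.15, 24 and 14.1 at 5 years, lower in all 3 5-year libraries and past the thresholds (-1.27 ± 0.45 SE). UCP2 had 128, 132 and 139 FPKM at 1.5 years and 67.7, 113 and 104 at 5 years, lower without overlap by less than 2-fold. EMB was higher without overlap, also by less than 2-fold (3.05 to 4.09 and 4.56 to 7.20 FPKM), and NPTN, MPC1 and MPC2 overlapped between the ages.

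The 5-year libraries did not differ from the 1.5-year libraries by equal amounts. Library 1 was the farthest of the 3 from the 1.5-year mean in 162 of 215 members, among them 8 of the 9 higher and 10 of the 10 lower rows past the thresholds, and library 2 was the nearest in 136. The 9 higher members differed from the 1.5-year mean by a median of 1.98, 1.01 and 1.48 (log2) in 5-year libraries 1, 2 and 3, and the 10 lower members by -2.36, -0.66 and -1.18. The order of the libraries was the same in both sets, with the gap widest in library 1 and narrowest in library 2.

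Several cell type marker lists showed the same order of the 5-year libraries. Summed FPKM of the 7 round spermatid markers was 215, 183 and 255 at 1.5 years and 51.1, 188 and 90.0 at 5 years, with 4 of 7 past the thresholds and lower, and that of the 4 elongating spermatid markers in the table was 1154 to 1195 and then 263, 849 and 731, with 4 of 4 lower. Sertoli cell markers went the other way, with 71.9 to 83.9 at 1.5 years and 250, 104 and 130 at 5 years. All 5 in the table were higher without overlap and 0 were past the thresholds. Peritubular and stromal markers had 23.8 to 26.6 and then 56.9, 34.7 and 47.1. Spermatogonia markers stood at 54.9 to 61.7 and 113, 61.9 and 68.6, spermatocyte markers at 93.0 to 97.6 and 78.2, 96.7 and 90.8, and the 2 Leydig cell markers in the table at 10.1 to 19.1 and 7.40, 8.40 and 7.87. The sums of macrophage markers (25.6 to 30.9 and 28.5, 34.7 and 30.4) and endothelial markers (7.09 to 9.39 and 8.12, 8.58 and 11.6) overlapped between the ages and did not follow that order. The macrophage sum hid opposite changes. Of its 6 markers, 1 (C1QA) was past the thresholds and higher and 2 (AIF1 and CD163) were lower, each without overlap. In C1QA, AIF1 and CD163 5-year library 1 was the farthest from the 1.5-year libraries and library 2 the nearest. AIF1 had 12.8 to 14.2 FPKM at 1.5 years and 3.11, 9.69 and 5.61 at 5 years. The single erythroid marker in the table stayed under 1 FPKM in every library. TNP2, PRM1, PRM2, AMH and CLDN11 had no row under their symbols. The part of these cell types in the differences of the SLC genes was not tested.

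Leaving out 1 library at a time changed how many members passed. Without 5-year library 1, 5 higher and 4 lower members were past the thresholds (background 3.30%), and all of these were among the 19. SLC39A4, SLC38A2, SLC25A6, SLC4A3, SLC30A3, SLC38A4, SLC38A8, SLC16A11, SLC16A13 and SLC45A1 no longer passed, with log2 fold changes of 0.96, 0.81, 0.69, 0.76, -0.90, -0.86, -0.92, -0.76, -0.85 and -1.12. Without 5-year library 2, there were 17 higher and 14 lower (background 16.3%), and 38 members (17.7%, against 19.3% of all rows tested) had an adjusted p under 0.05 in limma with Benjamini-Hochberg adjustment, 22 of them higher and 16 lower. Without 1.5-year library 1, 2 or 3, 6, 8 and 9 of the 9 higher and 6, 9 and 6 of the 10 lower members still passed, and without 5-year library 3, 7 and 7. In all 6 such fits SLC7A3, SLC9A3R2 (ENSBGRG00000025882), SLC37A2 (ENSBGRG00000021440), SLC25A30 (ENSBGRG00000023216), SLC44A5, SLC36A3, SLC10A6 and SLC5A4 (ENSBGRG00000020645) passed. Of these, the named rows of SLC7A3, SLC9A3R2, SLC37A2, SLC44A5 and SLC5A4 had a mean under 1 FPKM at 1 age. Those rows entered the members through the age at which they were high, and SLC7A3 was picked with its pattern known. Their passing is therefore a description.

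**Figure D4:**
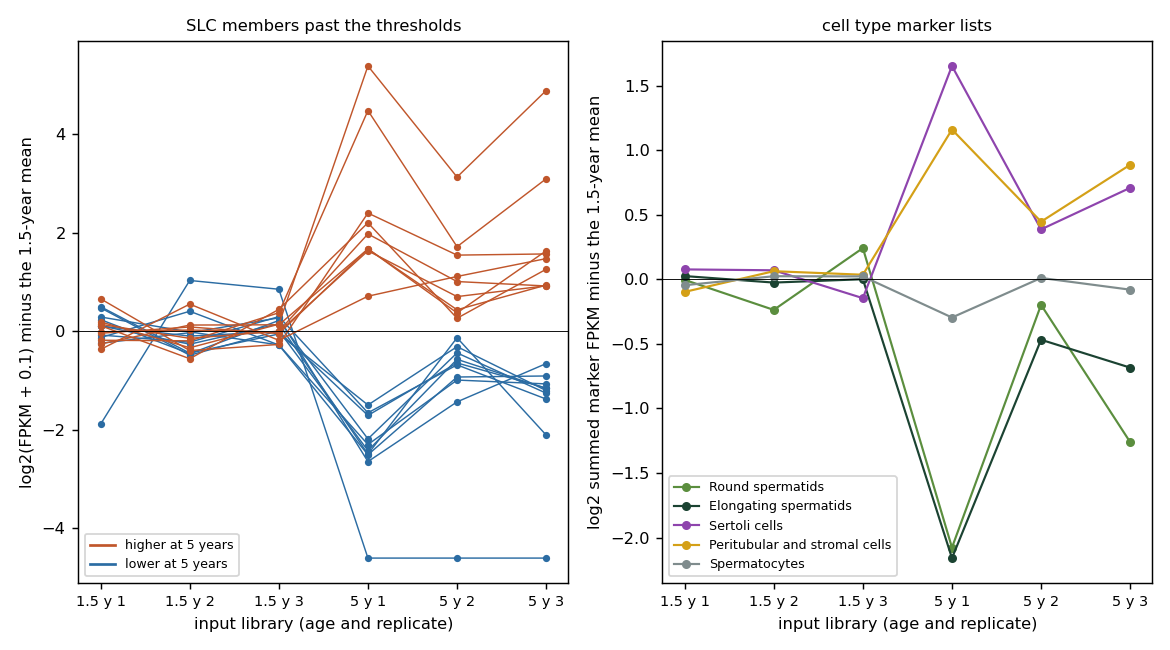
The left panel shows the 19 SLC members past the thresholds as log2(FPKM + 0.1) minus their 1.5-year mean in each input library, and the right panel shows the same difference for the log2 summed FPKM of 5 marker lists. Each line joins the 6 libraries of 1 gene or list and implies no order among replicates. In both panels 5-year library 1 lies farthest from 0 for most lines and 5-year library 2 lies closest.

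The m6A peaks that differed between the ages were deposited as 1 list of 1438 peaks, with no direction, fold, p-value or value per animal. Of the 215 members, 15 (6.98%) carried 22 of these peaks, against 9.29% of all rows tested. There were 11 members with 1 peak, 3 with 2 (SLC37A3, SLC25A29 and SLC5A4 on ENSBGRG00000020704) and 1 with 5 (SLC26A11). By the deposited annotation 14 of the 22 lay in exons, 5 in a 3′ UTR and 3 in a 5′ UTR, and their median width on the genome was 348 bp against 398 bp for all 1438. Of all tested rows with a mean of at least 1 FPKM, 10.1% carried such a peak. Of the 15 members with a peak, 0 were past the expression thresholds, against 9.0% of the 1156 tested rows with a peak, and 5 (33.3%, against 31.3%) had an unadjusted p under 0.05. Of these, SLC25A29, SLC25A36, SLC24A4 and SLC48A1 were higher and SLC1A4 was lower in the 5-year libraries, and in all 5 the ages did not overlap. With 1 library left out, the unadjusted p of SLC25A36 in limma was not under 0.05 in 5 of 6 fits (up to 0.0999, all but that without 5-year library 2) and that of SLC25A29 in 2 of 6 (up to 0.0518, without 1.5-year library 1 or 3).

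SLC25A29, a mitochondrial carrier of basic amino acids, had a peak in the 3′ UTR (chr17:70461081-70461377, LU_Bosgru_v3.0) and one in exon 1 of 2 (chr17:70462068-70463182). The gene spanned 3259 bp in the annotation of the peaks and 13245 bp in RefSeq, so exon 1 there need not be the first exon of SLC25A29. The FPKM of SLC25A29 was 4.55, 5.02 and 4.50 at 1.5 years and 15.5, 7.15 and 6.83 at 5 years, with library 1 the highest and a log2 fold change of 0.95 ± 0.31 (SE). SLC37A3, a partner in the release of certain phosphonates from lysosomes, had a pair of 3′ UTR peaks (chr4:17653612-17653910 and chr4:17654010-17654209) with 1.68, 1.73 and 1.69 FPKM at 1.5 years and 2.40, 1.67 and 1.93 at 5 years, overlapping. The other 3′ UTR peaks were those of SLC24A4, a potassium-dependent sodium-calcium exchanger (chr17:61728504-61728653), and SLC48A1, a heme transporter of endosomes (chr5:74802179-74802326). SLC24A4 had 1.88 to 2.47 FPKM at 1.5 years and 3.02 to 5.62 at 5 years, and SLC48A1 0.727 to 0.825 and 1.35 to 1.49.

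Peaks in a 5′ UTR were found on SLC1A4 (chr9:86819712-86820207), on the glutamine transporter SLC1A5 (chr20:61644727-61644924) and on SLC5A4 (chr16:78821101-78821442). Peaks in exon 1 were listed for SLC19A2, a thiamine transporter (chr14:33359361-33367365), SLC22A5, the carnitine transporter (chr8:23524776-23524925), and SLC39A1, a zinc importer (chr3:555371-555724). SLC16A7, the lactate and pyruvate transporter known from sperm, had a peak in exon 3 of 5 (chr5:51552302-51558042), and SLC25A36, a mitochondrial carrier of pyrimidine nucleotides, one in exon 6 of 7 (chr1:139446634-139448145). Apart from SLC1A4 and SLC25A36, the expression of these genes overlapped between the ages.

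Some of the peaks credited to SLC genes lay in exons of other identifiers, as was so for 7 of the 22 peaks (31.8%) against 47 of the 1438 (3.27%). All 5 peaks of SLC26A11, a sulphate transporter, between chr19:12778028-12778227 and chr19:12783297-12783696, were annotated to exons 26, 29, 30, 31 and 32 of the 69 exons of ENSBGRG00000022479, which had no row in the expression table. The gene model of SLC26A11 spanned 165360 bp there and 17681 bp in RefSeq, where its neighbour is RNF213. The peak of SLC25A12, a mitochondrial exchanger of aspartate and glutamate (chr2:123132327-123139541), was annotated to exon 11 of 11 of HAT1, which is next to SLC25A12 in RefSeq, and 1 SLC5A4 peak (chr16:78820866-78821014) to another SLC5A4 identifier. The models of SLC4A9 and SLC22A5 were 7.98 and 3.98 times as long as in RefSeq, and the single SLC4A9 peak (chr8:56176798-56186239) was in exon 14 of 35. Without the 7 peaks, 13 members carried a peak.

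**Figure D5:**
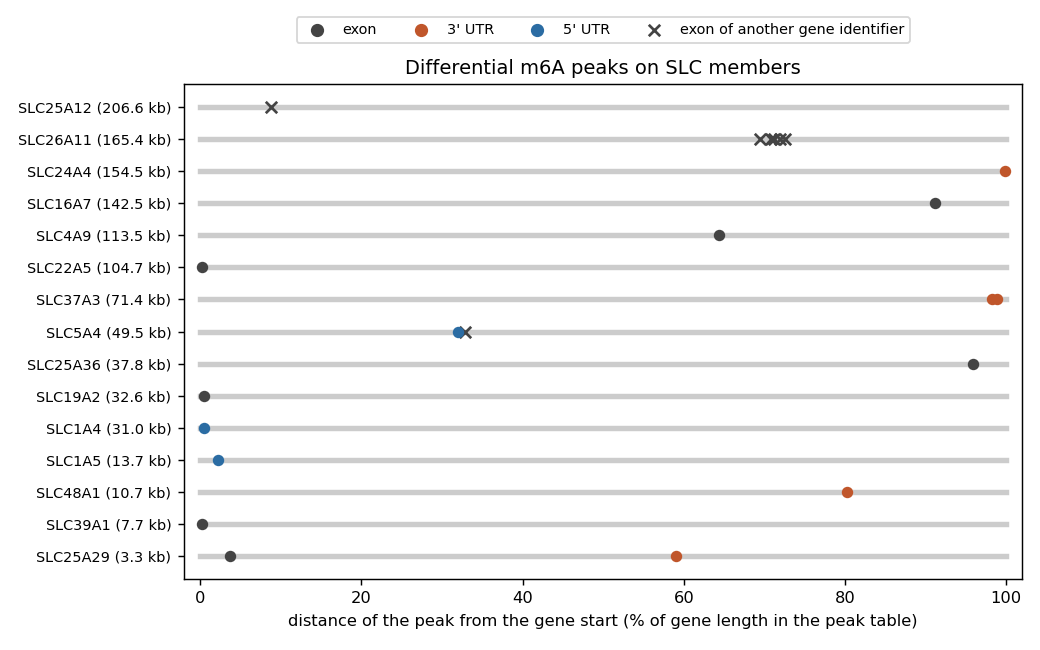
The 22 differential m6A peaks on 15 SLC members are placed by their distance from the gene start as a percentage of the gene length in the peak table, with the length in brackets. Colours give the annotated region and crosses mark the 7 peaks in an exon of another gene identifier, 5 of them on SLC26A11.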

How the data were processed

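The authors deposited 1 table of FPKM for the 6 input libraries. Per the study's methods, reads were trimmed with Trimmomatic, cleared of ribosomal RNA and aligned with HISAT2 (version 2.0.4 in the submitters' processing notes) to LU_Bosgru_v3.0, and uniquely aligned reads were kept. The program that computed FPKM was not given in the sources used here. Values did not fall on whole multiples of 1 read, so the depth is unknown and no interval from counts is given. Differential peaks came from MeTDiff (p of at most 0.05, fold of at least 1.5) with ChIPseeker annotation, and their deposited width is in bp on the genome. The peak lists of the single ages, cut short in the copies used here, were not analysed.

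Rows with a mean of at least 0.5 FPKM were tested in limma 3.58.1 (R 4.3.3) on log2(FPKM + 0.1) with a mean-variance trend, 5 years minus 1.5 years, two-sided, with Benjamini-Hochberg adjustment over all 12437 rows. Values are given in the order of libraries 1, 2 and 3, and the libraries of an age are separate animals. An exact permutation test of 3 against 3 libraries cannot give a p under 0.1. The 38 rows followed in detail were SLC7A3, the 10 highest means, up to 8 past the thresholds without overlap in each direction, and members with a peak. Members of the germ cell and somatic lists and further rows were added for their group. Members and lists were chosen with earlier results of these data known. RefSeq (Bosgru_T2T1.0) was used for gene lengths and neighbours only, and 172 of the 178 symbols matched. No sequence of the build used was at hand, so none is printed.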

Additional observations from a re-analysis of the deposited data

How the results depend on the processing

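The 9 higher members became 5 with a pseudocount of 1, 24 at a 1.5-fold limit and 4 among members with a mean of at least 2 FPKM, and leaving out 1 library gave 5 to 17. The 10 lower members became 6 with a pseudocount of 1, and leaving out 1 library gave 4 to 14, where 6 was reached without 1.5-year library 3 and 4 without 5-year library 1. With FPKM scaled to the same sum the median log2 fold change of the members was 0.13, while that of all rows tested moved from 0.0426 to 0.166. The change of SLC5A4 (ENSBGRG00000020704) turned from -0.11 to 0.010 under that scaling, and lay between -0.29 and 0.20 with 1 library left out. Changes near 0 of members with a peak also turned: SLC4A9 to 0.039 under that scaling and 0.026 under quantile normalization (-0.14 to 0.016 with 1 library left out), SLC1A5 to -0.045 under quantile normalization (-0.10 to 0.18), SLC16A7 (ENSBGRG00000009741, -0.093 to 0.21) and SLC19A2 (-0.20 to 0.58). The causes were not tested, apart from the stated change of a fold or level limit, which admits more rows or fewer. The other alternatives (no filter, upper-quartile or quantile scaling, limma without a trend or robust, 1 row per symbol) kept both counts within 1.5 times, as did leaving out the rows that are not carriers, an alternative added after seeing the data. With the replicate number as a block, 9 higher and 9 lower members passed. Deviations of libraries with the same number correlated at -0.022, -0.091 and 0.007, so the numbers did not pair the animals. The count of 15 members with a peak was 10 to 15 under its alternatives. Depth is unknown, so the counting error of members near 1 FPKM could not be given.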

Other observations

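Some further rows had no place in the comparisons. SLC66A1, a lysosomal exporter of basic amino acids, had 1.14, 1.24 and 1.56 FPKM at 1.5 years and 2.95, 2.52 and 1.69 at 5 years. SLC14A1, a urea transporter, had 0.860, 0.928 and 0.901 and then 1.83, 1.29 and 1.6, and SLC12A7, a potassium-chloride cotransporter, had 0.927, 0.762 and 0.720 and then 1.95, 1.30 and 1.81. In each of these the ages were apart, and the fitted change on the log2(FPKM + 0.1) scale, which understates that of low values, was under 2-fold. SLC6A16, an orphan member of the neurotransmitter carrier family, stood on 5 rows, the most of any member symbol, with log2 fold changes between -0.65 and 0.0089. SLC46A2, a carrier known from the thymus, had a log2 fold change of -1.29 and missed the p threshold (unadjusted p = 0.068 in limma), with 4.24, 1.67 and 3.63 FPKM at 1.5 years and 0.416, 1.48 and 2.32 at 5 years. These rows were chosen after their values were seen.

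The gene ontology terms deposited with the rows did not always describe carriers. Of 206 members with a term, 30 (14.6%) carried "RNA-directed DNA polymerase activity", an enzyme activity of retroelements, and so did 16% of the tested rows with a term.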
